A study of Rattus norvegicus with 8 samples.

Results

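The mitosis and spindle genes are 42 genes whose products carry a cell through mitosis, and they were followed over 8 Illumina RatRef-12 arrays of cultured rat adipose-derived mesenchymal stem cells (ASCs). A member was represented by the probe that carried its gene symbol on the array, and by the brighter probe for Kif11, the only member with 2 probes. Of the 42 members, 35 had a probe, out of 13337 genes that a symbol on the array named. The 7 members without a probe were Top2a, Birc5, Kif4a, Mki67, Pttg1, Ncapg and Anln, and they were skipped. The ASCs came from fat of rats aged 8 weeks of the LEW (Lewis/Jms) and the PVG (Piebald Virol Glaxo) strain, and were kept for 24 h or 48 h either with PBS as control or with lipopolysaccharide (LPS), a bacterial endotoxin, at 1 µg/ml. The cells of each of 3 rats per strain were divided among the conditions and the RNA of the 3 was pooled, so that each combination of strain, treatment and time point was 1 array. The 4 groups were LEW control, LEW LPS, PVG control and PVG LPS, each with 1 array at 24 h and 1 at 48 h. The p-values below thus measure the spread between arrays of pooled cells and not the spread between rats. All arrays of a strain held cells of the same 3 rats, so that the strain cannot be told apart from these rats and their cultures. No label or method gave the position of the arrays on their chips, so that a chip shared by the arrays of 1 time point cannot be told apart from the time point.

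Most of these genes are transcribed late in the cell cycle, from the G2 phase into mitosis, and their messages are low in cells that have left the cycle. Their products condense the chromosomes, build the spindle, hold the cell at the spindle checkpoint until every kinetochore is attached, trigger the destruction of cyclin and securin, and divide the cytoplasm. The roles named below are those known from human and mouse cells. ASCs are fibroblast-like cells that divide in culture until they are crowded or deprived of growth factors. In RNA from a whole culture, fewer dividing cells and less of each message per dividing cell cannot be told apart.

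Promoters of mitotic genes are known in human and mouse cells for a short element, the cell cycle genes homology region, often with CCAAT boxes before it. Of the 42 members, 37 had an entry in a RefSeq table of rat promoters (build GRCr8), which spans 250 bases before to 50 bases after each start. No entry was found for Ccna2, Ube2c, Racgap1, Aurkb and Tpx2. The letters TTTGAA, on either strand (TTCAAA on the other), were in 29 of the 37 member promoters (78.4%), against 18.3% of all 33469 promoters of the table and 11.6% of the 6246 that belonged to genes tested on the arrays. The variant TTCGAA, which reads the same on both strands, was in 2 of the 37, against 1.69% of all promoters. CCAAT, on either strand (ATTGG on the other), was in 28 of the 37 (75.7%), against 37.5% of all promoters and 38.0% of those of genes tested. Both kinds of letters were together in 24 of the 37 (64.9%), against 7.95% of all promoters. In 2 of the 37 promoters matches to different motifs overlapped each other. The 150 bases before the start are shown, 5′ to 3′ on the strand of the gene with these motifs in capitals, for the 4 members with a promoter entry whose fall with time was the largest, where a reader can see the motif spacing (Ccnb2, Cdk1, Cks2 and Prc1), for the member with the lowest adjusted p for LPS (Kif23) and for the only member tested that did not pass for time (Mad2l1):
Ccnb2 (chr8:79981659-79981808, minus strand): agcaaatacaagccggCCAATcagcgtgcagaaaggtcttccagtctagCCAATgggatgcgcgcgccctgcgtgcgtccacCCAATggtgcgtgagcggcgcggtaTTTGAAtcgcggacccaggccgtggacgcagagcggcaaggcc
Cdk1 (chr20:19265143-19265292, plus strand): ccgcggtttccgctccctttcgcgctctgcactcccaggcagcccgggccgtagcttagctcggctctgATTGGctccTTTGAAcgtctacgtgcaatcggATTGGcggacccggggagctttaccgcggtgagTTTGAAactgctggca
Cks2 (chr17:13727520-13727669, minus strand): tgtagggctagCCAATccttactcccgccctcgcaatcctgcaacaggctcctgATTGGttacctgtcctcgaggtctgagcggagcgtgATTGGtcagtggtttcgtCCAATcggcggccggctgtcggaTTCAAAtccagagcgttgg
Prc1 (chr1:143659331-143659480, plus strand): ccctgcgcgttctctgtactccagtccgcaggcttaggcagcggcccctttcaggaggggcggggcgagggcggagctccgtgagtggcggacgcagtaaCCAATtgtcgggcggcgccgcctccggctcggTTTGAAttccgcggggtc
Kif23 (chr8:71320585-71320734, minus strand): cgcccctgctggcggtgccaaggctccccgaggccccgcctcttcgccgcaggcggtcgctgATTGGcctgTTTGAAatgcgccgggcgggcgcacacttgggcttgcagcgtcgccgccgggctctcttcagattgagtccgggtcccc
Mad2l1 (chr4:97236359-97236508, plus strand): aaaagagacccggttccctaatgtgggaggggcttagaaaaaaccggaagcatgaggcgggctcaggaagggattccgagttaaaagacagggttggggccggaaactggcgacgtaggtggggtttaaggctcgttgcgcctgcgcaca
The stretch of Ccnb2 held 3 CCAAT boxes, 134, 101 and 68 bases before the start, and TTTGAA 43 bases before it. In Cdk1 TTTGAA stood 72 and 16 bases before the start, in Prc1 it stood 18 bases before it, and in Cks2 its other strand stood 19 bases before it. Kif23 held ATTGG and TTTGAA close to each other, 88 and 79 bases before the start. The stretch of Mad2l1 held none of the motifs, but TTTGAA lay 28 bases after its start, outside the bases shown, so that Mad2l1 is among the 29 counted above. The sequences are those of the reference rat and not of LEW or PVG, a match is not a bound site, and a missing match says only that the letters are not in this window.

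Signals were scaled so that the 75th percentile was equal on all arrays, and they are given as scaled signals on a linear scale, with no background subtracted. A probe was called detected on an array where its detection p against the negative controls of that array was under 0.05. The 10414 of 22523 probes detected on at least 2 of the 8 arrays were tested with limma on the log2 scale, and a probe passed at a Benjamini-Hochberg adjusted p under 0.05 over all of these. Between 8947 and 9509 probes were detected on each array. Of the fibroblast and MSC markers with a probe, 8 of 8 were detected on all 8 arrays. Undetected on all 8 were 5 of 7 leukocyte and macrophage genes (Ptprc, Cd3e, Cd3g, Cd163 and Adgre1), 2 of 4 endothelial genes (Cdh5 and Vwf) and 2 of 4 adipocyte genes (Adipoq and Lep). Of the others, Tie1 was detected on all 8 arrays with scaled signals of 87.7 to 110, Cidec on 4, Itgam, Aif1 and Tek on 3 each and Fabp4 on 1. By the members, the LEW LPS array at 48 h stood apart: it was the lowest of the 8 arrays for 30 of the 33 members tested and the PVG control array at 24 h was the highest for 26. The counts of members that passed, and the members with the largest part in them, are given below without the former as well.

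Of the 35 members with a probe, 33 were tested. Ccnb1, a B-type cyclin, was undetected on all 8 arrays (scaled signals of 61.8 to 75.6), and Melk, a kinase of dividing progenitor cells, was detected only on the PVG control array at 24 h (67.0 to 85.8). Fewer members were detected at 48 h: 32 to 34 of the 35 were detected on each array at 24 h, and 29 in PVG control, 27 in LEW control, 27 in PVG LPS and 14 in LEW LPS at 48 h. The 14 members detected on all 8 arrays were Cdk1, Ccnb2, Cks2, Nuf2, Aurkb, Cdca8, Cdc20, Ube2c, Kif22, Tpx2, Prc1, Hmgb2, Ncapd2 and Smc2. The other 19 members tested were all undetected in LEW LPS at 48 h. Among them, Bub1, Bub1b, Mad2l1, Nusap1 and Kif2c were detected at 48 h on only 1 array each, and Cdca3 on none.

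**Figure D1:**
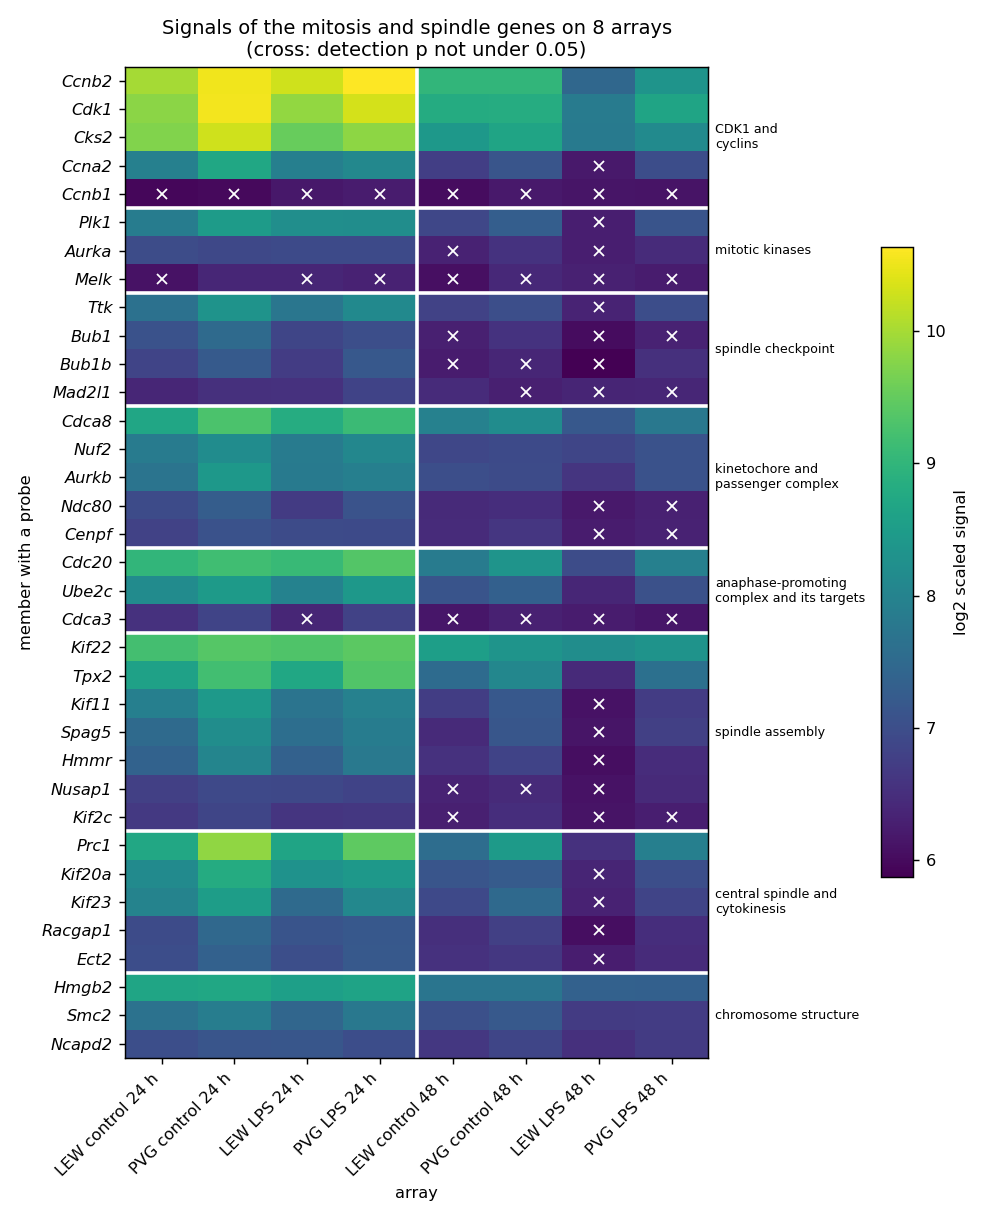
Log2 scaled signal (colour) of the 35 members with a probe (rows, by role) on the 8 arrays (columns). A cross marks a probe that was not detected. The 4 columns of 24 h are brighter than those of 48 h for most members, and LEW LPS at 48 h has the most crosses, with 14 of 35 members detected.

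The largest difference over the members was with time. Of the 33 members tested, 32 were lower at 48 h than at 24 h, over the means of the 4 groups, and none was higher (limma, adjusted p under 0.05, and also at an unadjusted p under 0.05). Over all probes tested, 2.56% were lower at 48 h at the adjusted threshold, and 1776 of 10414 had an unadjusted p under 0.05 in either direction. The median difference of the members was -1.11 on the log2 scale (2.17-fold lower), and that of all probes tested was 0.03. Folds of the 32 members ranged from 1.31 to 3.76, and 19 members were more than 2-fold lower. For 32 of the 33, every 48 h array was below every 24 h array, which held in this direction for 3.17% of all probes tested. Since a member seen only at 24 h had to differ in order to be tested at all, the 14 members detected on all 8 arrays were counted alone, and 14 of 14 were lower at 48 h, with a median of -1.24. Ccnb2 had the second largest fall of all 10414 probes, and 12 members were among the 25 largest falls and 25 among the 100 largest. Leaving out the LEW LPS array of either time point, and with it that group's part in the time difference, 31 members passed and the median was -1.07, with -1.60 for Ccnb2, -1.36 for Prc1, -1.29 for Tpx2 and -1.13 for Cdc20. In a 2-way analysis of variance with LPS and time, without moderation and without the strain, only 1 member passed, Hmgb2.

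**Figure D2:**
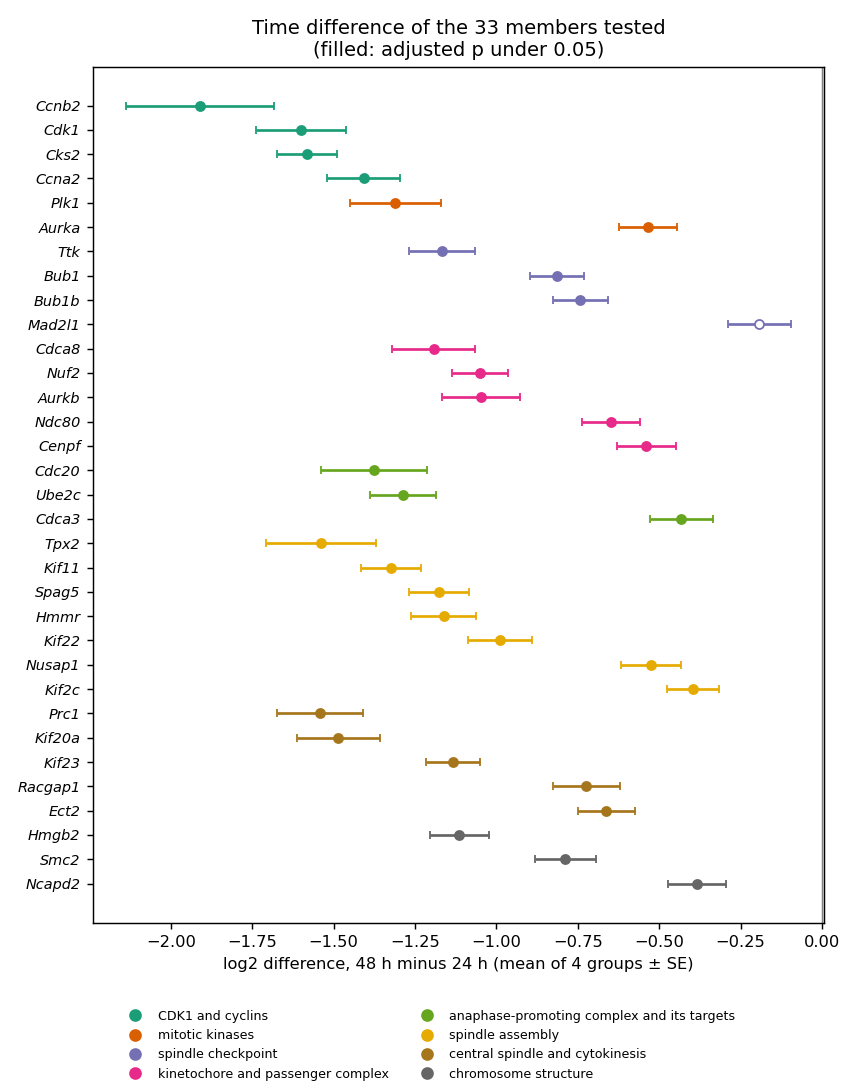
Log2 difference, 48 h minus 24 h, of the 33 members tested (points, mean over the 4 groups, bars ± SE of the fit), coloured by role. All points but that of Mad2l1 are filled (adjusted p under 0.05), and they lie between -0.39 and -1.91.

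CDK1, the kinase that drives entry into mitosis, works with cyclins and with small CKS subunits, and the 4 members of this role that were tested fell 2.65- to 3.76-fold. Cdk1 had scaled signals of 891 in LEW control, 1505 in PVG control, 926 in LEW LPS and 1286 in PVG LPS at 24 h, and 449, 452, 232 and 402 in the same order at 48 h. Its 24 h and 48 h arrays did not overlap, and the difference was -1.60 ± 0.14 (log2 ± SE, adjusted p = 8.61e-05). Ccnb2, a B-type cyclin that activates CDK1, had 1018 in LEW control, 1479.8 in PVG control, 1247 in LEW LPS and 1590.0 in PVG LPS at 24 h, and 511, 517, 175 and 324 in the same order at 48 h. It fell 3.76-fold (log2 -1.91 ± 0.23, adjusted p = 0.000665), and the LEW LPS array at 48 h stood well below the other 48 h arrays. Cks2, a small subunit of CDK complexes, had 854 in LEW control, 1246 in PVG control, 735 in LEW LPS and 909.5 in PVG LPS at 24 h, and 342, 404, 226 and 284 in the same order at 48 h. It had the smallest adjusted p of the members for time and fell 2.99-fold (log2 -1.58 ± 0.09, adjusted p = 1.1e-05). Ccna2, the cyclin of S and G2 phase, had 247 in LEW control, 419.7 in PVG control, 244 in LEW LPS and 275 in PVG LPS at 24 h, and 109, 139, 73.5 and 127 in the same order at 48 h, and it was undetected in LEW LPS at 48 h. It fell 2.65-fold (log2 -1.41 ± 0.11, adjusted p = 6.66e-05).

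Of the mitotic kinases, 2 were tested and both fell. Plk1, which acts at centrosomes, kinetochores and the cleavage site, had 233 in LEW control, 359 in PVG control, 301 in LEW LPS and 296 in PVG LPS at 24 h, and 118, 158, 77.3 and 137 in the same order at 48 h, and it was undetected in LEW LPS at 48 h. It fell 2.48-fold (log2 -1.31 ± 0.14, adjusted p = 0.000312). Aurka, the kinase of the spindle poles, had 125 in LEW control, 120.4 in PVG control, 122 in LEW LPS and 123 in PVG LPS at 24 h, and 79.7, 95.4, 77.4 and 88.0 in the same order at 48 h. Its 24 h values lay close together, and it fell 1.45-fold (log2 -0.53 ± 0.09, adjusted p = 0.00649) to signals that were undetected in both LEW arrays at 48 h.

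The spindle checkpoint holds anaphase back until all kinetochores are attached, and 3 of its 4 members fell. Ttk, the kinase at the top of the checkpoint, had 201 in LEW control, 319.8 in PVG control, 213 in LEW LPS and 279 in PVG LPS at 24 h, and 113, 129, 81.1 and 127 in the same order at 48 h. It fell 2.24-fold (log2 -1.17 ± 0.10, adjusted p = 9.62e-05). Bub1, a kinetochore kinase, had 134 in LEW control, 183 in PVG control, 117 in LEW LPS and 129.7 in PVG LPS at 24 h, and 77.9, 95.4, 65.2 and 80.3 in the same order at 48 h, and it was detected at 48 h only in PVG control. It fell 1.76-fold (log2 -0.81 ± 0.08, adjusted p = 0.000243). Bub1b, which encodes the checkpoint protein BubR1, had signals of 58.4 to 148 over the 8 arrays, was detected at 48 h only in PVG LPS and fell 1.67-fold (log2 -0.74 ± 0.08, adjusted p = 0.000492). Mad2l1, which encodes the CDC20 inhibitor MAD2, had 83.0 in LEW control, 92.0 in PVG control, 93.5 in LEW LPS and 114 in PVG LPS at 24 h, and 87.9, 78.6, 82.3 and 83.9 in the same order at 48 h. Of the members tested, it was the only one whose times overlapped and the only one that did not pass (log2 -0.19 ± 0.10, adjusted p = 0.342). It was undetected on 3 of the 4 arrays of 48 h.

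The kinetochore and the chromosomal passenger complex join chromosomes to microtubules and correct wrong attachments, and 5 of 5 members tested fell. Cdca8, which encodes the passenger subunit borealin, had 412 in LEW control, 622 in PVG control, 449.8 in LEW LPS and 556 in PVG LPS at 24 h, and 251, 293, 146 and 219 in the same order at 48 h. It fell 2.29-fold (log2 -1.19 ± 0.13, adjusted p = 0.000324). Nuf2, a subunit of the NDC80 complex that grips microtubules, had 232 in LEW control, 289.9 in PVG control, 232 in LEW LPS and 269.6 in PVG LPS at 24 h, and 118, 123, 117 and 134 in the same order at 48 h. The 4 values of 48 h lay close together, LEW LPS included, and the fall was 2.07-fold (log2 -1.05 ± 0.09, adjusted p = 7.12e-05). Aurkb, the kinase of the passenger complex, had signals of 97.7 to 339.8 and fell 2.07-fold (log2 -1.05 ± 0.12, adjusted p = 0.000536). Ndc80, the partner of Nuf2 (73.5 to 155), fell 1.57-fold (log2 -0.65 ± 0.09, adjusted p = 0.00183), and Cenpf, a kinetochore protein that appears in G2 (74.7 to 135), fell 1.45-fold (log2 -0.54 ± 0.09, adjusted p = 0.00729), both to signals that were undetected on the 2 LPS arrays of 48 h.

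The anaphase-promoting complex is the ubiquitin ligase that ends mitosis by marking cyclin B and securin for destruction, and 3 of 3 members tested fell. Cdc20, its activator in mitosis, had 515 in LEW control, 574 in PVG control, 543 in LEW LPS and 658 in PVG LPS at 24 h, and 232, 322, 126 and 248 in the same order at 48 h. It fell 2.59-fold (log2 -1.38 ± 0.16, adjusted p = 0.000636), and LEW LPS was again the lowest of the 48 h arrays. Ube2c, the ubiquitin-conjugating enzyme that serves the complex, had 288 in LEW control, 354 in PVG control, 252 in LEW LPS and 340.3 in PVG LPS at 24 h, and 138, 162, 83.6 and 132 in the same order at 48 h. It fell 2.44-fold (log2 -1.29 ± 0.10, adjusted p = 6.66e-05). Cdca3, a target of the complex, had signals of 71.7 to 114 and was undetected on LEW LPS at 24 h and on all 4 arrays of 48 h. It fell 1.35-fold (log2 -0.43 ± 0.10, adjusted p = 0.031). With each 48 h signal raised to the lowest detected signal of its array, the fall was 1.17-fold. The undetected 24 h value was left as measured, so that this is not a lower limit. The call for Cdca3 was lost without any single array of LEW control, PVG control or PVG LPS (adjusted p up to 0.172).

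Kinesins and spindle-associated proteins set up the bipolar spindle, and 7 of 7 members tested fell. Kif22, a chromokinesin that pushes chromosome arms, had 591 in LEW control, 666 in PVG control, 643 in LEW LPS and 693 in PVG LPS at 24 h, and 374, 323, 293 and 318 in the same order at 48 h. It fell 1.99-fold (log2 -0.99 ± 0.10, adjusted p = 0.000209), with little spread among the 24 h arrays. Tpx2, which activates aurora A and seeds spindle microtubules, had 387 in LEW control, 582 in PVG control, 418 in LEW LPS and 646 in PVG LPS at 24 h, and 186, 268, 86.3 and 198 in the same order at 48 h. It fell 2.91-fold (log2 -1.54 ± 0.17, adjusted p = 0.00039), and at 48 h its LEW LPS value was less than that of any other array. Kif11, the motor that slides the spindle poles apart, had 242 in LEW control, 346 in PVG control, 207 in LEW LPS and 251 in PVG LPS at 24 h, and 106, 145, 68.8 and 106 in the same order at 48 h. It fell 2.50-fold (log2 -1.32 ± 0.09, adjusted p = 3.08e-05). Spag5, which encodes the spindle protein astrin, had 184 in LEW control, 295 in PVG control, 193 in LEW LPS and 233 in PVG LPS at 24 h, and 86.5, 141, 70.5 and 109 in the same order at 48 h. It fell 2.26-fold (log2 -1.18 ± 0.09, adjusted p = 6.66e-05) and was undetected in LEW LPS at 48 h. Hmmr, a microtubule-binding protein of the spindle (65.9 to 262), fell 2.24-fold (log2 -1.16 ± 0.10, adjusted p = 8.61e-05). Nusap1, which bundles spindle microtubules (69.1 to 121), fell 1.44-fold (log2 -0.53 ± 0.09, adjusted p = 0.00886), and it missed the threshold without either PVG control array (adjusted p up to 0.0581). Kif2c, a kinesin that shortens microtubules (69.4 to 116), fell 1.32-fold (log2 -0.40 ± 0.08, adjusted p = 0.0204), and it missed the threshold without any single array of LEW control, PVG control or PVG LPS (up to 0.0876).

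The central spindle forms between the parting chromosomes and places the cleavage furrow, and 5 of 5 members tested fell. Prc1, which crosslinks antiparallel microtubules there, had 426 in LEW control, 916 in PVG control, 403 in LEW LPS and 704 in PVG LPS at 24 h, and 191, 353, 93.7 and 244 in the same order at 48 h. It fell 2.91-fold (log2 -1.54 ± 0.13, adjusted p = 8.61e-05), and within each time point and treatment the PVG value was above the LEW value. Kif20a, a kinesin that brings the passenger complex to the central spindle, had 284 in LEW control, 444 in PVG control, 317 in LEW LPS and 341 in PVG LPS at 24 h, and 139, 150.1, 82.4 and 129 in the same order at 48 h. It fell 2.80-fold (log2 -1.49 ± 0.13, adjusted p = 8.61e-05). Kif23, the kinesin of the centralspindlin complex, had 255 in LEW control, 368 in PVG control, 183 in LEW LPS and 272 in PVG LPS at 24 h, and 121, 181, 79.9 and 115 in the same order at 48 h. It fell 2.19-fold (log2 -1.13 ± 0.08, adjusted p = 4.45e-05). Racgap1, the other subunit of centralspindlin (66.0 to 178), fell 1.65-fold (log2 -0.72 ± 0.10, adjusted p = 0.00232), and Ect2, the exchange factor that it binds to activate RhoA (76.3 to 164), fell 1.58-fold (log2 -0.66 ± 0.09, adjusted p = 0.00142).

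Of the genes for chromosome structure 3 were tested, and all 3 fell, with a median of -0.79. This was nearer to 0 than the median of the members as a whole. So were the medians of the checkpoint genes (-0.78), the mitotic kinases (-0.92) and the kinetochore and passenger genes (-1.05). Hmgb2, a chromatin protein of dividing cells, had 409 in LEW control, 418 in PVG control, 378 in LEW LPS and 397 in PVG LPS at 24 h, and 211, 211, 162 and 162 in the same order at 48 h. It fell 2.17-fold (log2 -1.11 ± 0.09, adjusted p = 7.12e-05). The strains had nearly equal signals, and at 48 h both LPS arrays were below both control arrays, although its LPS difference was not past the threshold (log2 -0.24 ± 0.09, adjusted p = 0.188). Smc2, a core subunit of condensin, had 204 in LEW control, 238 in PVG control, 174 in LEW LPS and 219 in PVG LPS at 24 h, and 130.3, 146, 104 and 105 in the same order at 48 h. It fell 1.73-fold (log2 -0.79 ± 0.09, adjusted p = 0.000625). Ncapd2, another condensin subunit (92.4 to 142), fell 1.31-fold (log2 -0.39 ± 0.09, adjusted p = 0.0365), and this call was lost without any 1 of the 8 arrays (adjusted p up to 0.112).

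**Figure D3:**
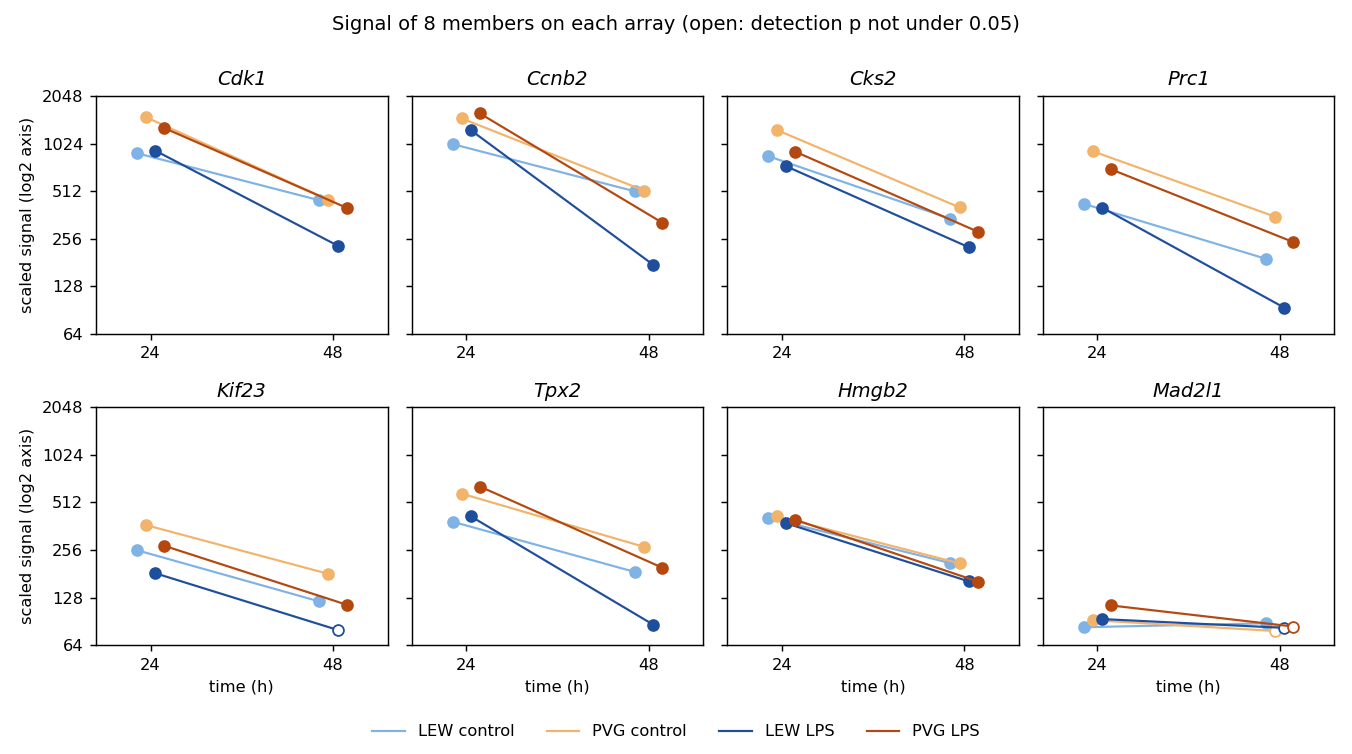
Scaled signal (log2 axis) of 8 members at 24 h and 48 h, with a line for each of the 4 groups and open points where the probe was undetected. The lines of Hmgb2 pair by treatment at 48 h, at 211 and 162, those of Prc1 are separated by strain, those of Ccnb2 cross, with 175 in LEW LPS at 48 h, and those of Mad2l1 stay between 78.6 and 114.

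The fall with time was seen in each of the 4 groups taken alone, where 1 array stands against 1 and no test is possible. The median difference over the 33 members was -0.82 in LEW control, -1.04 in PVG control, -1.11 in PVG LPS and -1.20 in LEW LPS. In LEW control 32 of the 33 were lower at 48 h, the exception being Mad2l1, and in each of the other 3 groups 33 of 33 were lower. At least 24 members in each group were lower by 1.5-fold or more, against between 1.63% and 2.79% of all probes tested.

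Between the strains, 16 of the 33 members were higher in PVG than in LEW and none was lower (limma, adjusted p under 0.05). Of all 10414 probes tested, 1144 (11%) were higher in PVG at this threshold. At an unadjusted p under 0.05 (limma), 22 members were higher and none was lower, while 3308 of all probes tested passed in either direction. All 33 differences were positive, with a median of 0.35 on the log2 scale (1.28-fold), against -0.01 over all probes tested. Among the 14 members detected on all 8 arrays, 6 passed. PVG was above LEW in all 4 pairs of arrays of equal treatment and time for 23 of the 33 members, against 18.8% of all probes tested. The ranges of the 4 LEW and the 4 PVG arrays overlapped for every member, since the time points lay further apart than the strains.

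Prc1 had the largest strain difference of the members and was 2.06-fold higher in PVG (log2 1.04 ± 0.13, adjusted p = 0.000177). From the signals given above, it was 2.15-fold and 1.85-fold higher in PVG control than in LEW control at 24 h and 48 h, and 1.75-fold and 2.60-fold higher in PVG LPS than in LEW LPS. Kif23 was 1.47-fold higher (log2 0.55 ± 0.08, adjusted p = 0.000607), with folds between 1.44 and 1.49 in the 4 pairs. Spag5 was 1.48-fold higher (log2 0.57 ± 0.09, adjusted p = 0.00104) and Kif11 was 1.38-fold higher (log2 0.46 ± 0.09, adjusted p = 0.00382). By role, 3 of 4 CDK1 and cyclin genes passed (Cdk1, Cks2 and Ccna2), 1 of 2 mitotic kinases (Plk1), 3 of 4 checkpoint genes (Ttk, Bub1 and Bub1b), 1 of 5 kinetochore and passenger genes (Cdca8), 1 of 3 genes of the anaphase-promoting complex (Ube2c), 4 of 7 spindle assembly genes (Tpx2, Kif11, Spag5 and Hmmr) and 3 of 5 central spindle genes (Prc1, Kif23 and Racgap1). None of the 3 genes for chromosome structure passed (log2 differences of 0.02 to 0.18), and for Hmgb2 the 2 strains had nearly equal signals at each time point and treatment. Of 2 genes of smooth muscle contraction with a probe, Tagln and Cnn1, both were higher in PVG, and their summed scaled signal was 1760 to 4366 on the LEW arrays and 8778 to 12548 on the PVG arrays. Of the 8 fibroblast and MSC markers 2 were higher in PVG (Itgb1 and Nt5e) and 2 were lower (Pdgfra and Thy1). Over all 10414 probes tested, 1144 were higher in PVG and 1107 were lower. Of the 2 leukocyte genes tested Aif1 was higher, and the summed signal of the 7 leukocyte genes was 499.9 to 525 on the LEW and 469.7 to 546 on the PVG arrays. The part of these markers in the strain difference of the members was not tested.

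The strain calls depend on taking the time point into the fit. Without it, no member passed (limma, none at an unadjusted p under 0.05 either), because the fall with time then counts as spread. The count of 16 changed to 9 without the LEW control array at 24 h, 10 without the PVG control array at 24 h, 9 without the PVG LPS array at 24 h and 10 without the PVG control array at 48 h. Without the LEW LPS array at 48 h, 12 members passed and the median was 0.25, with 0.86 for Prc1 and 0.53 for Kif23. The 7 members that passed whichever array was left out were Prc1, Kif23, Spag5, Kif11, Bub1b, Ttk and Hmmr.

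**Figure D4:**
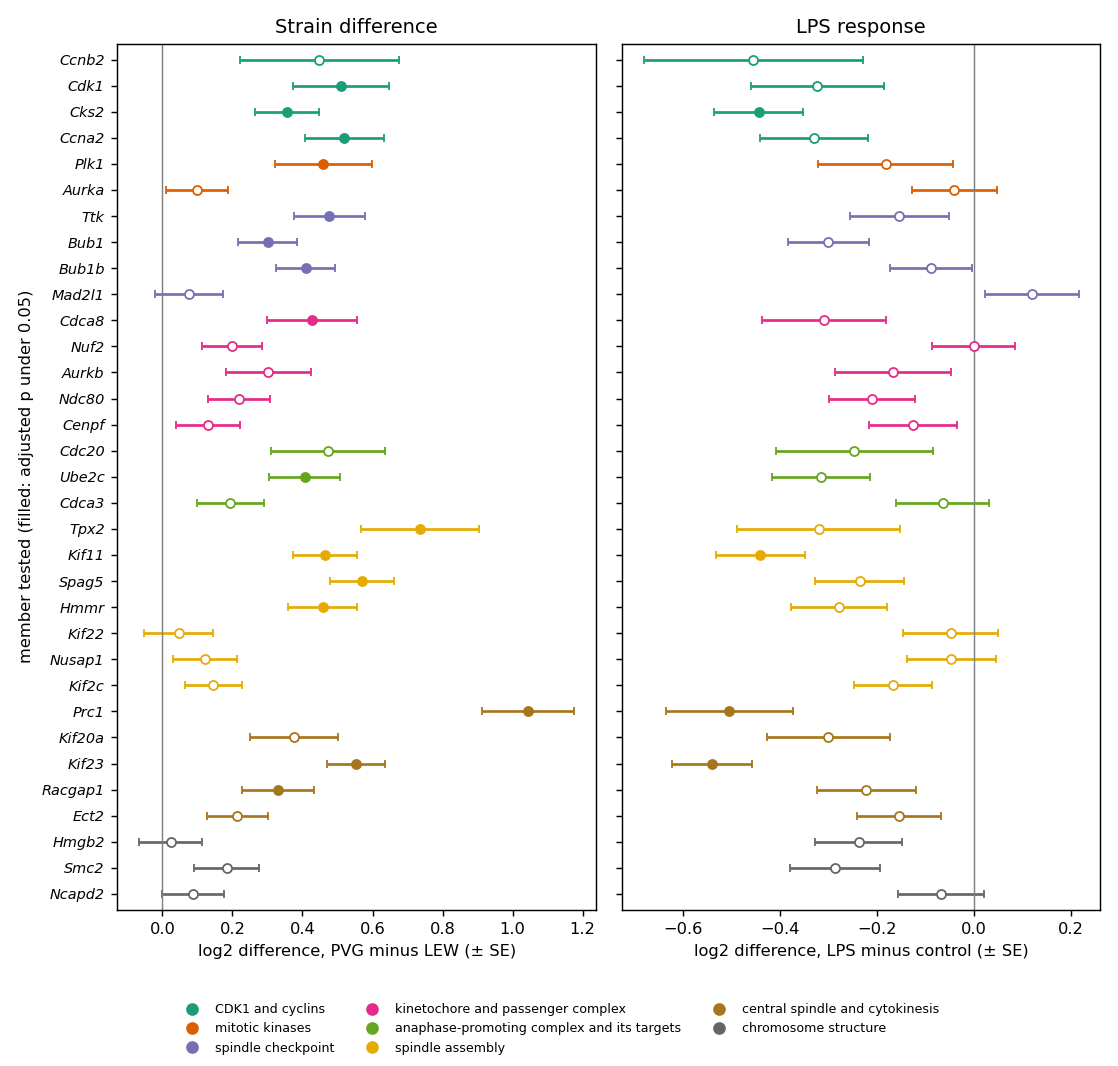
Log2 differences of the 33 members tested, PVG minus LEW (left, mean over control and LPS) and LPS minus control (right, mean over both strains), as points with bars of ± SE of the fit, coloured by role and filled where the adjusted p was under 0.05. All 33 points on the left are above 0, with Prc1 at 1.04, and 32 of 33 on the right are below 0, with Kif23 at -0.54.

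With LPS, 4 of the 33 members were lower over both strains and none was higher (limma, adjusted p under 0.05), against 2.81% of all probes tested that were lower at this threshold. They were Kif23, 1.46-fold lower (log2 -0.54 ± 0.08, adjusted p = 0.00269), Cks2, 1.36-fold lower (log2 -0.44 ± 0.09, adjusted p = 0.0148), Kif11, 1.36-fold lower (log2 -0.44 ± 0.09, adjusted p = 0.0163), and Prc1, 1.42-fold lower (log2 -0.51 ± 0.13, adjusted p = 0.0487). At an unadjusted p under 0.05 (limma), 15 members were lower and none was higher, while 1749 of 10414 probes passed in either direction. The median over the members was -0.24, against 0.00 over all probes tested, and 32 of the 33 differences were negative, the exception being Mad2l1. LPS arrays were below control arrays in all 4 pairs for 12 of the 33 members, against 13.8% of all probes tested. Of the 4, Kif23 and Kif11 were undetected in LEW LPS at 48 h, and Cks2 and Prc1 were detected on all 8 arrays. Without the time point in the fit none of the 4 passed. Only Kif23 passed whichever array was left out (adjusted p up to 0.0295). The count was 14 without the LEW LPS array at 24 h, and 1 without the PVG control or the PVG LPS array at 24 h, or without the LEW control, the PVG control or the PVG LPS array at 48 h. Without the LEW LPS array at 48 h it was 3, with a median of -0.14, and Prc1 was lost (log2 -0.32, adjusted p = 0.0993). Of the smooth muscle genes, 1 of 2 was also lower with LPS, Tagln (log2 -0.51 ± 0.12, adjusted p = 0.0342), with summed signals of both genes of 3371 to 12548 on the control and 1760 to 9760 on the LPS arrays. Of the 8 fibroblast and MSC markers 2 were higher with LPS, Nt5e (log2 0.64 ± 0.14, adjusted p = 0.0188) and Pdgfra (log2 0.55 ± 0.12, adjusted p = 0.0216), and none was lower. Over all 10414 probes tested, 321 were higher with LPS and 293 were lower. The part of these markers in the LPS difference of the members was not tested.

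Within LEW 1 of the 33 members was lower with LPS, against 1.39% of all probes tested, and within PVG 1 was lower, against 0.711% of all probes tested. It was Kif23 in both strains, with log2 differences of -0.54 ± 0.12 in LEW (adjusted p = 0.03) and -0.54 ± 0.12 in PVG (adjusted p = 0.0436). Both calls were lost without most of the single arrays, 7 of 8 for LEW and 6 of 8 for PVG. Without the LEW LPS array at 48 h, no member passed within LEW, with a median of -0.05 and -0.50 for Kif23 (adjusted p = 0.168), and 3 passed within PVG. The strain by LPS interaction was not past the threshold for any member, against 0.0576% of all probes tested, and none did at an unadjusted p under 0.05 (limma). On single arrays, the differences of the members with LPS were largest in LEW at 48 h. There the median difference between LPS and control was -0.40, and 12 of the 33 members were lower by 1.5-fold or more, against 3.12% of all probes tested. In LEW at 24 h the median was 0.02 and no member was lower by 1.5-fold or more, against 1.57% of all probes tested. In PVG the medians were -0.16 at 24 h and -0.22 at 48 h. There 1 and 2 members were lower by 1.5-fold or more, against 2.08% and 1.09% of all probes tested. Each of these 4 comparisons sets 1 array against 1, with no replicate check.

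Whether the fall with time differed between the treatments was tested with all pairwise interactions in the fit, which leaves 1 residual degree of freedom. Of the 33 members 1 passed, Ccnb2, against 0.259% of all probes tested (27 of 10414). Of these 27 the interaction was negative for Ccnb2 alone and positive for 26. Its fall was larger with LPS (interaction -1.31 ± 0.21 on the log2 scale, adjusted p = 0.0246), and the call was lost under 4 of 11 alternatives (adjusted p up to 0.159). With LPS it was 7.11-fold lower at 48 h in LEW and 4.91-fold lower in PVG, and without LPS 1.99-fold and 2.86-fold lower. Without the LEW LPS array at 48 h no residual degree of freedom is left for a test. In PVG alone LPS minus control was 0.10 at 24 h and -0.68 at 48 h for Ccnb2. The interaction was negative for 28 of the 33 members, with a median of -0.22, against -0.03 over all probes tested. An unadjusted p under 0.05 (limma) was reached by 7 members, all negative, and by 1156 of 10414 probes in either direction. Whether the fall differed between the strains was tested in the same way, and no member passed, against 0.192% of all probes tested (limma). At an unadjusted p under 0.05 there was 1 member, and 1443 of 10414 probes in either direction.

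Other genes of the cell cycle were compared as lists. Of 30 other mitosis genes with a probe 21 were tested, and 15 were lower at 48 h and none higher, with a median of -0.61. Among them were Spc25, a partner of Ndc80 and Nuf2, 2.09-fold lower (log2 -1.06 ± 0.10, adjusted p = 0.000138), Kifc1, a minus-end kinesin, 3.16-fold lower (log2 -1.66 ± 0.17, adjusted p = 0.000221), and Stmn1, which binds free tubulin, 1.79-fold lower (log2 -0.84 ± 0.09, adjusted p = 0.000317). Of 28 replication genes tested 19 were lower and none higher, with a median of -0.58. Over all probes tested, 2.56% were lower at 48 h. Rrm2, the small subunit of ribonucleotide reductase, had 892 in LEW control, 1576 in PVG control, 858 in LEW LPS and 1351 in PVG LPS at 24 h, and 234, 453, 162 and 365 in the same order at 48 h. It fell 4.02-fold (log2 -2.01 ± 0.11, adjusted p = 1.03e-05), with no overlap between the times and with PVG above LEW in all 4 pairs. The helicase subunits Mcm6 and Mcm2 fell 2.62-fold (log2 -1.39 ± 0.13, adjusted p = 0.000119) and 1.79-fold (log2 -0.84 ± 0.08, adjusted p = 0.000171).

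Genes that act earlier or hold the cycle back were compared in the same way. Of 11 regulators of mitotic transcription tested only Mybl2, a factor that switches on late cell cycle genes, was lower (log2 -0.37 ± 0.08, adjusted p = 0.0289). Foxm1, another such factor, had a difference of -0.29 ± 0.08 (adjusted p = 0.0885) and Lin54, a subunit of the complex that binds the homology region, of -0.33 ± 0.11 (adjusted p = 0.134). Of 5 cyclins and kinases of the G1 phase tested only Ccnd1, cyclin D1, was lower, 1.66-fold (log2 -0.73 ± 0.12, adjusted p = 0.00729). Of 11 genes of CDK inhibition and growth arrest none passed, with a median of 0.10, and of 11 reference genes none passed, with a median of -0.02 (limma). Over all probes tested, 141 were higher and 267 lower at 48 h. With the arrays scaled to equal medians instead, 14 were higher and 178 lower, while 31 members were still lower.

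For the strains, 8 of the 21 other mitosis genes were higher in PVG and none was lower, among them the tubulins Tuba1b (1.51-fold, log2 0.60 ± 0.11, adjusted p = 0.00318) and Tubb4b (1.69-fold, log2 0.76 ± 0.15, adjusted p = 0.00355) and Gtse1, a microtubule-binding protein of G2 (1.33-fold, log2 0.41 ± 0.09, adjusted p = 0.00767). Of the 28 replication genes 7 were higher in PVG and 1 was lower. Rrm2 was 1.87-fold, Mcm6 1.73-fold and the DNA ligase gene Lig1 1.43-fold higher in PVG (adjusted p = 0.000104, 0.00092 and 0.00492). Of the regulators, 1 was lower in PVG, Rbl2, a relative of the retinoblastoma protein, 1.25-fold (log2 -0.32 ± 0.09, adjusted p = 0.0195). Of the reference genes, Actb was higher in PVG and B2m and Pgk1 were lower (1.26-, 1.56- and 1.36-fold). With LPS, 1 of the 21 other mitosis genes was lower, the GTPase gene Ran (1.26-fold, adjusted p = 0.0311), against 2.81% of all probes tested. Of the 28 replication genes 4 were lower with LPS and none was higher, among them the clamp gene Pcna (1.38-fold, adjusted p = 0.017), Mcm2 (1.30-fold, adjusted p = 0.0188) and Pola2, a subunit of DNA polymerase alpha (1.28-fold, adjusted p = 0.025).

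**Figure D5:**
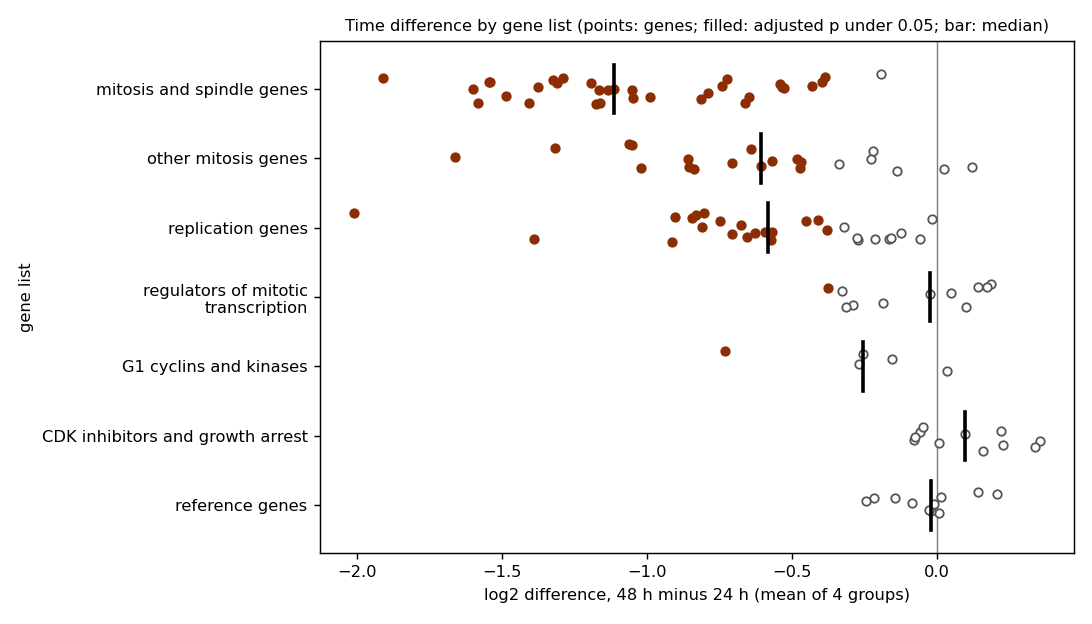
Log2 difference, 48 h minus 24 h, of each gene tested in 7 lists (points, filled where the adjusted p was under 0.05, spread vertically only to show them, bars at the medians). The medians are -1.11 for the mitosis and spindle genes, -0.61 for other mitosis genes and -0.58 for replication genes, and between -0.25 and 0.10 for the other 4 lists.

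The members had much alike profiles over the 8 arrays. The Pearson correlation of a member's log2 profile with the mean of the other members was 0.94 or more for 31 of the 33, 0.89 for Cdca3 and 0.61 for Mad2l1. These correlations are descriptions over 8 arrays that share strains, treatments and time points, and the members share the fall with time. Among 7420 other genes tested, the 8 whose profile was most like the mean of the members were Cenpt, Asf1b, Gng13, Aspm, Spc25, Mastl, Kntc1 and Rrm2, with correlations of 0.987 to 0.996. Cenpt encodes a kinetochore protein, Asf1b a histone chaperone, Gng13 a G protein subunit, Aspm a spindle pole protein, Mastl a kinase that protects mitotic phosphorylation and Kntc1 a checkpoint protein of the kinetochore. Geometric mean scaled signals of Gng13 were 280.1 at 24 h and 137 at 48 h (log2 -1.03 ± 0.09, adjusted p = 0.000119), and those of Mastl were 163 and 87.4 (log2 -0.90 ± 0.08, adjusted p = 0.000138).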

How the data were processed

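RNA of ASCs was hybridised to 8 RatRef-12 arrays, 1 per strain, treatment and time point. The main table deposited by the authors gives linear bead intensities before any normalization between arrays, and for each probe a detection p-value against that array's negative controls. A second table deposited by the authors holds intensities normalized to equal quantiles, and was used as an alternative. Of 22523 probes 13793 carried a gene symbol, matched to RefSeq.

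Each array was brought to the same 75th percentile of signal, following the methods, floored at 16, which changed no value, and log2-transformed. Probes with a detection p under 0.05 on at least 2 of the 8 arrays were kept (10414). A filter on both arrays of a group would favour genes seen at both times. limma 3.58.1 in R 4.3.3 was fitted with the 4 groups and the time point (3 residual degrees of freedom), and with all pairwise interactions for the time interactions (1 residual degree of freedom), with Benjamini-Hochberg adjustment. The time point, which the labels give, pairs the arrays of the 4 groups: their 48 h minus 24 h differences correlated with r of 0.213 to 0.451 over 10414 probes. Genes with several probes were read from the one with the highest mean signal. The procedure was tested on simulated data of this design. Alternatives were normexp (offset 50) or neqc (offset 16) for the background, median or quantile scaling, the other table, other detection filters, a floor of 64, an intensity trend, averaging a gene's probes, a 2-way analysis of variance with no moderation, after the methods, with LPS and time for the time and LPS differences and with strain and LPS, leaving out the time point, for the others, omitting the time point, and omitting each array in turn. The number of arrays limits the precision. Where this left a group with 1 array, its spread was taken from the remaining groups.

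The members, roles, lists and motifs were chosen with earlier results of these data known. Every member is named. Values on all arrays are given for the 2 brightest members of each role, up to 4 members with the smallest adjusted p in each contrast, and Mad2l1, and ranges for the others. Of other lists up to 3 genes with the smallest p for time, and up to 3 that pass for strain or LPS, are named. Promoters were read from RefSeq (GRCr8) with Python 3.11.15. Figures were drawn with matplotlib 3.10.9.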

Additional observations from a re-analysis of the deposited data

Results flagged for a closer look

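The effect of LPS on the level of Ccnb2, the B-type cyclin gene, differed between the time points by a test of the difference itself: the interaction of time and LPS was -1.31 on the log2 scale (SE 0.21, limma adjusted p = 0.0246). LPS arrays were above control arrays at 24 h in both strains, by 0.29 in LEW and 0.10 in PVG, and below them at 48 h, by a log2 difference of -1.54 in LEW and -0.68 in PVG. The test has 1 residual degree of freedom, and the adjusted p was above 0.05 under 4 of 11 alternatives (up to 0.159): normexp background correction, the second deposited table, median scaling, and the filter for detection on all 8 arrays.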

How the results depend on the processing

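No direction of a call was reversed. The fall with time passed for 28 to 31 members when each array was left out (202 to 432 probes of all tested, against 408) and for 31 or 32 under every other alternative but 2: the filter for detection on all 8 arrays, which left 14 members to test, gave 14, and analysis of variance with LPS and time, which left out both the moderation and the strain, gave 1 member and 1 probe. Cdca3 missed the threshold with quantile normalization, the second table and median scaling. Probes passing for time were 192 with median scaling and 721 with no detection filter. Members passing for strain, against 16, were 11 with median scaling, 13 with quantile normalization, 13 with the second table and 14 with neqc. They were 18 with an intensity trend and 19 with no detection filter.

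For strain, 9 to 19 members passed with an array left out (1401 to 2484 probes, against 2251), 6 with detection on all 8 arrays, 0 by analysis of variance, which left out both the moderation and the time point (423 probes), and 0 with no replicate block, that is without the time point (1411 probes).

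For LPS, 1 to 14 members passed with an array left out (275 to 950 probes, against 614), 2 with neqc, 2 with median scaling (256 probes), 7 with no detection filter, 1 with detection on all 8 arrays, 0 by analysis of variance (0 probes) and 0 with no replicate block (221 probes). Within LEW, 0 to 9 members passed with an array left out (88 to 693 probes, against 369), 2 with no detection filter (627 probes) and 0 with neqc, quantile normalization (243 probes), the second table (244), median scaling (64), detection on all 8 arrays (199), analysis of variance (4) and no replicate block (62). Within PVG, 0 to 3 members passed with an array left out (17 to 376 probes, against 187), 2 with no detection filter (366 probes) and 0 with neqc, quantile normalization (114 probes), the second table (113), median scaling (31), detection on all 8 arrays (119), analysis of variance (4) and no replicate block (31).

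The strain by LPS interaction passed for 0 members under every alternative, and for 0 to 131 probes with an array left out (against 6), 1 with median scaling, 42 with no filter, 1 with detection on all 8 arrays, 10 with an intensity trend, 0 by analysis of variance and 3 with no replicate block. Time by strain passed for 0 members under every alternative run, and for 0 probes (against 20) with normexp, median scaling or detection on all 8 arrays, 6 in the second table, 48 with the floor of 64, 431 with no filter and 40 with the mean of all probes. Time by LPS passed for 0 members with normexp, the second table, median scaling or detection on all 8 arrays and 5 with no filter, and for 14 probes (against 27) with neqc, 0 with normexp, 13 in the second table, 0 with median scaling, 311 with no filter and 0 with detection on all 8 arrays. The time interactions were not run with an array left out or without the time point, since no residual degree of freedom or no term would be left. The analysis of variance had no term for time by strain. It held a term for time by LPS, which was not read out. The cause of these changes was not tested.

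Signals hold the background of the array, so that folds of dim probes are smaller than those of the RNA. With neqc, which removes it, the median of the members for time was -1.54 in place of -1.11. Melk and Ccnb1, detected on 1 and 0 arrays, were not tested.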

Other observations

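Genes that hold the cell cycle back were compared between the strains and with LPS. Of 11 genes of CDK inhibition and growth arrest tested, 4 were lower in PVG and none was higher (limma, with a median of -0.20), while 1107 of all 10414 probes tested were lower and 1144 higher. Gadd45a, a stress-induced gene of growth arrest, was 2.51-fold lower in PVG (log2 -1.33 ± 0.12, adjusted p = 1.47e-05) and 1.58-fold lower with LPS (log2 -0.66 ± 0.12, adjusted p = 0.00746). Ccng2, an atypical cyclin of cells that leave the cycle, was 1.91-fold lower in PVG (log2 -0.93 ± 0.09, adjusted p = 3.07e-05) and 1.66-fold higher with LPS (log2 0.73 ± 0.09, adjusted p = 0.000918). Gadd45g, a relative of Gadd45a, was 1.64-fold lower in PVG (log2 -0.72 ± 0.13, adjusted p = 0.00252). Ccnd1, cyclin D1 of the G1 phase, was 1.96-fold lower with LPS (log2 -0.97 ± 0.12, adjusted p = 0.000918).

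The platelet-derived growth factor receptor gene Pdgfra, a marker of MSCs, was 1.64-fold higher at 48 h (log2 0.71 ± 0.12, adjusted p = 0.0074). It had scaled signals of 674 in LEW control, 380.0 in PVG control, 989 in LEW LPS and 452 in PVG LPS at 24 h, and 1281, 437, 1926 and 766 in the same order at 48 h. It was higher at 48 h than at 24 h in each of the 4 groups and lower in PVG than in LEW in all 4 pairs (2.31-fold, log2 -1.21 ± 0.12, adjusted p = 3.07e-05). Of the other MSC markers, Thy1 was also lower in PVG, and Itgb1 and Nt5e were higher. Summed signals of the 8 fibroblast and MSC markers were 59151 to 67894 at 24 h and 60724.5 to 72686 at 48 h. Over all 10414 probes tested, 141 were higher at 48 h.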
